A study of Drosophila melanogaster with 10 samples.

Results

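Genes that were nearly exclusive to the thorax library of control flies at day 14 are described here. The series holds 10 RNA libraries of adult male thoraces, 1 per condition, each from 8 to 10 pooled thoraces. All flies carried esg-Gal4, which is active in gut progenitor cells, together with tub-Gal80ts and UAS-GFP. Control flies were sampled at day 14, and also at days 2 and 38. *Esg>yki* flies, which also carried UAS-yki-act and form gut tumors, were sampled at days 2, 8, 14, 20, 26, 32 and 38. The temperature was 29 °C up to day 14 and was then lowered to 18 °C, so the libraries of days 20, 26, 32 and 38 had 6, 12, 18 and 24 days at 18 °C. The control day 14 library held 31058987 reads on genes, and the other 9 held 14615109 to 38208954. With no replicates, no test was made between conditions, and intervals are 95% exact intervals that cover counting error only.

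The genes were chosen by their values. A gene was kept when it had at least 2 CPM (reads in each 1000000 reads on genes) in control day 14 and at least 5 times its CPM in each of the other 9 libraries. Of 17562 genes, 8739 reached 2 CPM in control day 14 and 26 of these met the whole rule, 0.298% of the genes tested. The rule drops symbols that begin with mt:, snoRNA, lncRNA, Jon, Cyp, Gst, Cpr, Hsp, Lsp, Pros, Rpn or Rpt. A pair of long non-coding RNAs, lncRNA:CR9284 and lncRNA:CR32652, were dropped in this way, which left 24 genes, all protein-coding. The excess in control day 14 is therefore what selected these genes, and their values are given as a description.

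In the fly testis, germ cells divide, pass through meiosis and become spermatids, which elongate into sperm. Spermatids replace their histones with sperm chromatin proteins, fuse their mitochondria into a large derivative that runs along the tail, and build a long flagellum. Many of the genes for these steps are transcribed in spermatocytes, before the meiotic divisions, and are known for transcription largely restricted to the testis. A thorax, made up mostly of flight muscle with some fat body, holds no testis, which lies in the abdomen.

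The largest family among the 24 genes was that of the sperm leucyl aminopeptidases (S-Laps), proteins that are abundant in sperm and belong to its mitochondrial derivatives. Of this family, 6 members and the related gene *loopin-1* met the rule. S-Lap1 (3L:8617235-8619474, plus strand) had 383 reads in control day 14 (12.3 CPM), against 21, 29, 14, 19, 30, 30 and 16 reads in *Esg>yki* days 2 to 38, 16 reads in control day 2 and 26 reads in control day 38. S-Lap3 had 275 reads in control day 14 (8.85 CPM), against 0 to 4 reads in the other 9 libraries (median 0). S-Lap7 had 221 reads (7.12 CPM), against single reads in *Esg>yki* days 8 and 26 and 0 in the other 7 libraries. For S-Lap3 and S-Lap7 nearly all reads of the series were thus in 1 library, whereas S-Lap1 had a low level in every library.

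S-Lap2 had 186 reads in control day 14 (5.99 CPM), against 1 to 8 reads in the other 9 (median 2). S-Lap4 had 167 reads (5.38 CPM), against 13 to 27 reads (median 20). S-Lap8 had 125 reads (4.02 CPM), against 1 read in control day 38 and 0 in the others. *loopin-1*, which encodes another aminopeptidase of sperm mitochondria, had 161 reads (5.18 CPM), against 1 to 9 reads (median 5). Summed over these 7 genes, the level was 48.9 CPM in control day 14 (46.45 to 51.4), against 1.23 CPM in control day 2 to 3.02 CPM in control day 38. The last listed member of the family, S-Lap5, had 18 reads in control day 14, under the minimum level, against 1 to 9 reads in the other 9. These genes are similar to one another, and the treatment of multiply matching reads is not given in the sources used here, so the split among them is uncertain.

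Members with other known roles in sperm formation followed. Mst77F (3L:20816901-20818027, minus strand), a sperm chromatin protein related to linker histones, had 116 reads in control day 14 (3.73 CPM), against 4 to 25 reads (median 16) in the other 9. *salto*, needed to shape the sperm head, also had 116 reads in control day 14, against 0 to 3 reads in the other 9 (median 2). *w-cup*, one of the cup genes, whose transcripts gather at the end of the spermatid tail, had 87 reads in control day 14 (2.80 CPM), against 1 read in *Esg>yki* day 8, 1 in control day 2 and 0 in the other 7. Ppi1, named as a protein phosphatase inhibitor, had 74 reads in control day 14, against 1 to 11 reads (median 5).

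Another 11 members carry only a number as their name, and no role is given here for them. CG32436 had 129 reads in control day 14 (4.15 CPM), against 4 to 17 reads (median 11) in the other 9. CG17377 had 123 reads (3.96 CPM), against 0 to 2 reads. CG4836, CG3213, CG15219, CG42393, CG31740, CG5089, CG31468 and CG10252 had 70 to 109 reads in control day 14, and no more than 5 reads in any other library. CG9254 had 68 reads and was the only one of the 24 genes at 0 in all 9 others. Against a floor of 3 reads set for those 9 libraries together, it was 180.3-fold higher in control day 14, a value that is not a confidence limit.

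**Figure D1:**
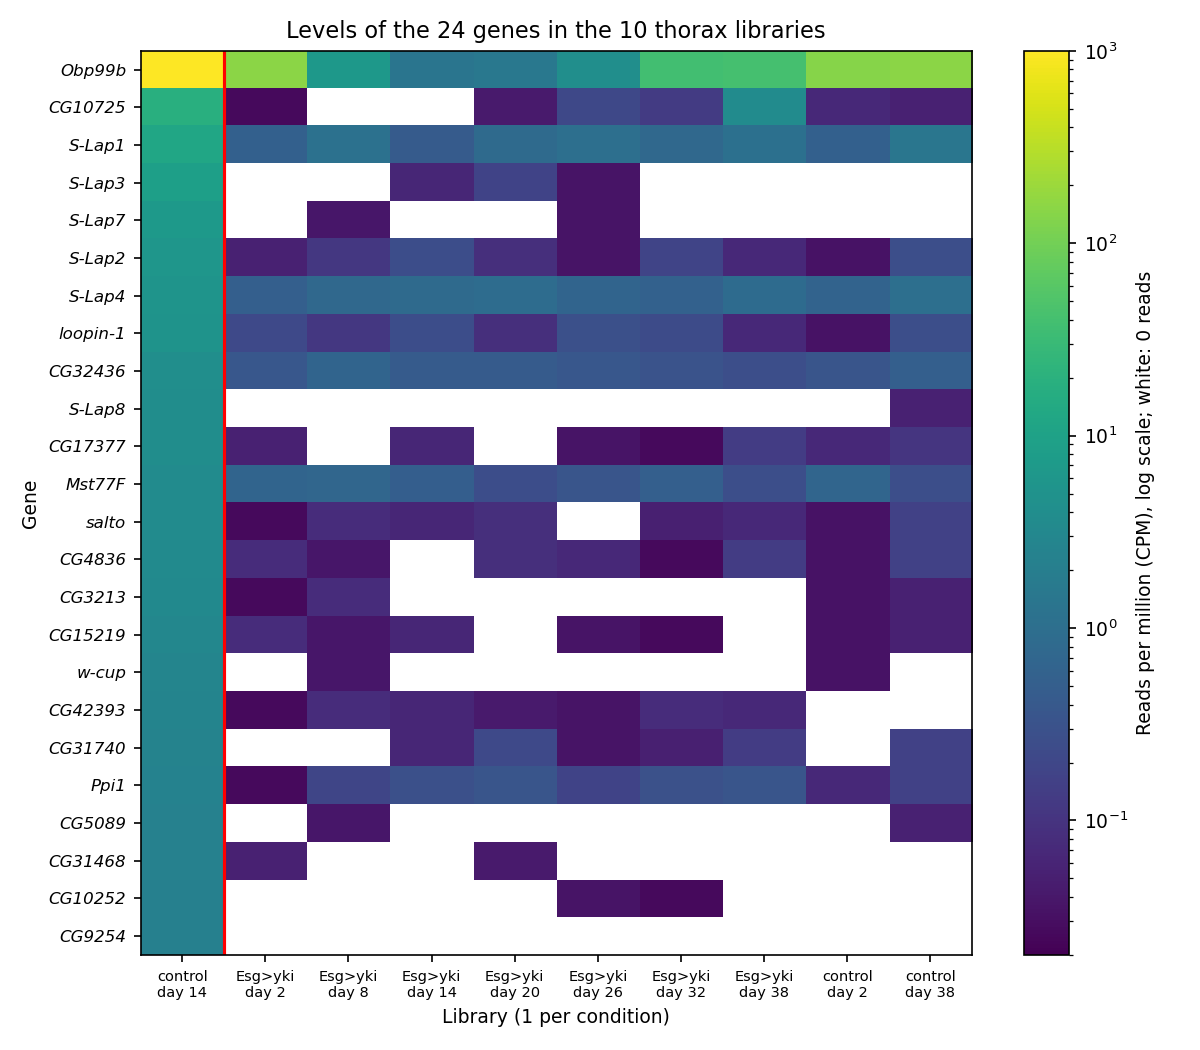
Level of each of the 24 genes (rows, in order of level in control day 14) in each of the 10 libraries (columns), as CPM on a logarithmic color scale, with white for 0 reads. The column of control day 14, left of the red line, is the highest in every row, as the rule requires, and 8 genes have reads in all 9 other libraries.

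Of the 24 genes, 16 were more than 10-fold over the next highest library, 7 were between 5-fold and 10-fold, and for CG9254 no other library had a read. These classes go by the ratio alone, and in several genes its interval reached below the class limit. Examples are CG31740 (11.3-fold, 4.65 to 35.9) and S-Lap4 (5.24-fold, 3.25 to 8.925). In 17 genes no other library exceeded 0.3 CPM. The 7 genes that did exceed it were *Obp99b*, CG10725, S-Lap1, S-Lap4, CG32436, Mst77F and Ppi1. The ratio for S-Lap1 to its next library, control day 38, was 8.79 (5.90 to 13.6), and that for S-Lap3 to *Esg>yki* day 20 was 50.6 (19.5 to 187.0). Ratios over 1 to 3 reads have wide intervals, as for S-Lap7, whose level was 184-fold that of *Esg>yki* day 8 (32.65 to 7293).

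A pair of genes stood apart in level and in pattern. *Obp99b* (3R:29716254-29716896, minus strand) encodes a protein of the odorant-binding family, and had 30268 reads in control day 14, or 974.5 CPM. In the *Esg>yki* libraries of days 2, 8, 14, 20, 26, 32 and 38 it had 149.6, 6.54, 1.36, 1.53, 4.12, 38.5 and 41.5 CPM. In the other control libraries it had 140.9 CPM at day 2 and 155.3 CPM at day 38. The control day 14 library was 6.27-fold over control day 38 (6.04 to 6.52). *Obp99b* was thus not nearly absent elsewhere: the other 9 libraries spanned 1.36 to 155.3 CPM, with the lowest values in *Esg>yki* days 14 and 20.

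CG10725 (3L:13437954-13439009, plus strand) had 581 reads in control day 14 (18.7 CPM), 53 reads in *Esg>yki* day 38 (3.63 CPM) and 0 to 6 reads in the other 8 libraries. Its ratio of 5.16 to *Esg>yki* day 38 (3.89 to 6.97) was the lowest of the 24 genes.

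**Figure D2:**
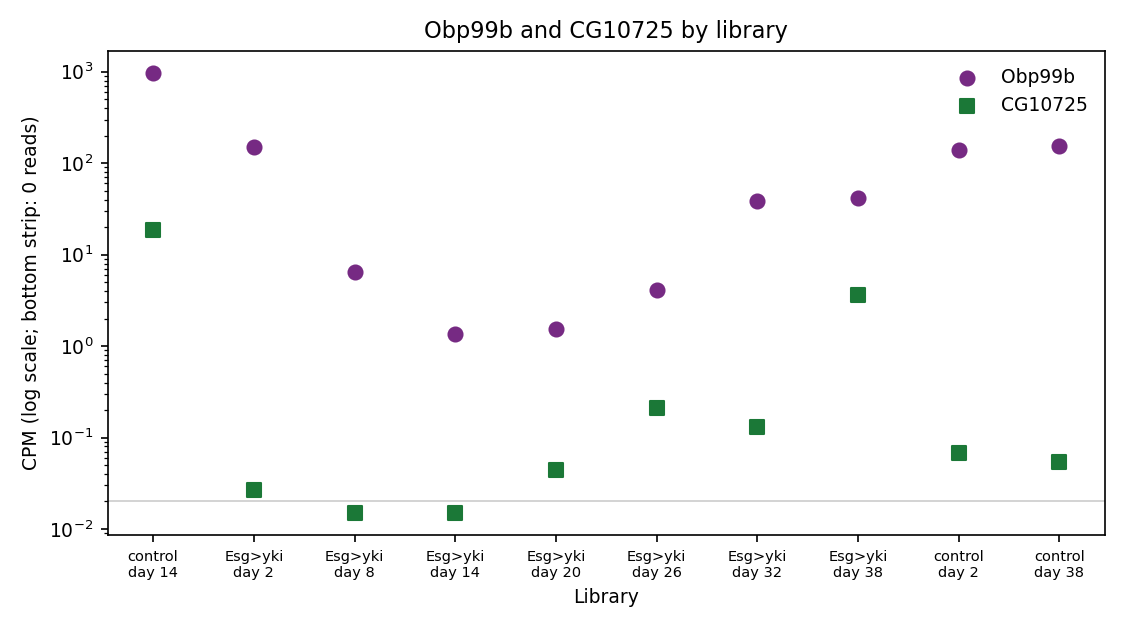
CPM of *Obp99b* (circles) and CG10725 (squares) in each library on a logarithmic axis, with 0 reads drawn in the bottom strip. *Obp99b* has 974.5 CPM in control day 14, and its other values run between 1.36 CPM in *Esg>yki* day 14 and 155.3 CPM in control day 38.

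The other 22 genes together had 2910 reads in control day 14, or 93.7 CPM (90.3 to 97.2), which is 0.00937% of the reads on genes. The other 9 libraries had 2.56 CPM (control day 2) to 4.75 CPM (control day 38), with a median of 3.42 CPM. Control day 14 was 19.7-fold over control day 38 (15.95 to 24.7). Per kilobase of merged exon, 23 genes (all but *Obp99b*) had 0.706 to 21.4 RPKM (CPM per kilobase) in control day 14, and *Obp99b* had 1641 RPKM. In bulk RNA, fewer cells of a type and less RNA per cell cannot be told apart.

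**Figure D3:**
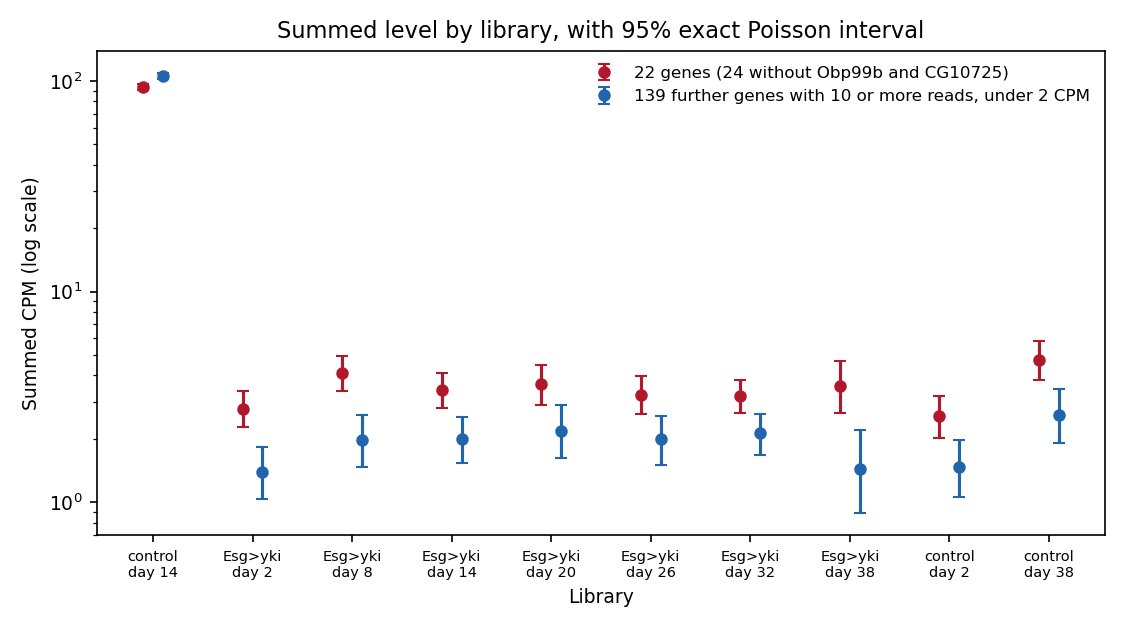
Summed CPM by library on a logarithmic axis, with 95% exact Poisson intervals, for 22 of the 24 genes (without Obp99b and CG10725) and for 139 further genes that met the fold rule with 10 or more reads but less than 2 CPM. The sums in control day 14 are 93.7 and 105.8 CPM, and no other library exceeds 4.75 and 2.59 CPM.

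The rule asks whether testis RNA marks this library, and marker lists of the male germline and of other organs were read beside it. Of 29 measured genes for sperm chromatin, sperm mitochondria and sperm tail proteins, 8 met the rule (the 7 aminopeptidases and Mst77F), and 25 of 29 had their highest CPM in control day 14. Over all 15735 genes with a read, 2647 were highest in control day 14, or 16.8%. For each gene, the level in control day 14 was divided by that in the other 9 libraries pooled, with pooled counts under 3 reads set to 3. The median of these ratios was 23.9 for the listed genes, against 0.99 over all genes with a read. The ratio of the summed list was lower, at 4.75 (4.51 to 4.99). These lists overlap the 24 genes, so the counts include the genes that the rule picked. Without the 8 selected genes, the other 21 summed to 27.3 CPM in control day 14, against 7.68 to 22.3 CPM in the other 9. The mitofusin gene *fzo* made up much of these sums, and without it the remaining 20 genes had 16.9 CPM in control day 14, against 2.12 CPM (*Esg>yki* day 38) to 4.0 CPM (*Esg>yki* day 2). Leaving out *fzo* was decided after its values were seen.

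Several sperm genes were below the minimum level of 2 CPM but showed the same pattern. *dj*, whose product lies along the sperm tail, had 53 reads in control day 14, 2 in *Esg>yki* day 14, 1 in *Esg>yki* day 38 and 0 in the other 7 libraries. *ocn*, a testis-specific gene, had 30 reads in control day 14 and 0 in all others. Its neighbor *janB*, whose protein is found in sperm, had 46 reads, against 0 to 6. The sperm tail genes Mst84Da, Mst84Db, Mst84Dc and Mst84Dd had 9, 21, 25 and 17 reads in control day 14. In the other 9 libraries the first 3 of these were at 0 and Mst84Dd had 0 to 2 reads. The protamine-like genes ProtA and ProtB had 3 and 15 reads in control day 14 and 0 elsewhere.

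Not all genes of the list followed. Mst87F, another sperm tail gene, had 48 reads in control day 14 and 74 reads in *Esg>yki* day 2, with 1 to 14 reads in the other 8 libraries. Mst36Fa was at 0.91-fold its level in *Esg>yki* day 20, and Prtl99C had 2 reads, against 3 in *Esg>yki* day 14. Mst36Fb, Cyt-c-d and Tpl94D were highest in control day 14, but only 1.55-fold, 1.86-fold and 2.12-fold over the next library. *fzo*, the spermatid mitofusin, had 10.4 CPM in control day 14, against 5.29 to 19.5 CPM in the other 9, and was 7th of 10. Of 12 cup and comet genes with a read, 7 were highest in control day 14 and 1, *w-cup*, met the rule. Most of these 7 had few reads: *w-cup* had 87 in control day 14 and the rest had 1 to 20. *m-cup* took most of the level of that list, with 1180 reads in control day 14 against 542 to 1268 reads in the other 9, and was second of 10 by CPM.

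Among genes of earlier germline stages none met the rule, but many had few reads. Of 13 meiotic arrest regulators, 6 had 10 or more reads in control day 14, as had 6 of 11 early germline genes. Highest in control day 14 were 3 of the 13 (23.1%) and 2 of the 11 (18.2%), against 16.8% of all genes with a read. The 13 genes listed as meiotic arrest regulators summed to 207.2 CPM in control day 14, against 110.2 to 311.3 CPM in the other 9. Nearly all of that sum was *bol*, a meiotic translation regulator, with 184.7 CPM in control day 14 against 99.3 to 295.4 CPM. The testis-restricted regulators *aly* and *comr* had 2 and 0 reads in control day 14, and 0 to 1 read in every other library. None of 11 early germline genes met the rule. Their sum of 1294 CPM in control day 14, against 462.9 to 1933 CPM, came mostly from *tud* (923.4 CPM) and *piwi* (360.2 CPM), which were 5th and 7th of 10. AGO3, an Argonaute protein of the piRNA pathway, had 6.70 CPM in control day 14, against 0.44 to 4.40 CPM in the other 9.

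None of 12 Y chromosome genes met the rule, and 5 of them had 10 or more reads in control day 14. Of 11 with a read, 5 were highest in control day 14 (45.45%, against 16.8% of all genes with a read). For each of these 5 the interval of the ratio to the next library included 1. The sum was 6.54 CPM in control day 14, against 0.65 to 5.16 CPM in the other 9. *kl-3*, a Y-linked dynein of the sperm flagellum, had 93 reads in control day 14 and 8 to 87 in the other 9. None of 8 axonemal dynein and tektin genes met the rule. Their sum was 65.8 CPM in control day 14, against 21.8 to 134.6 CPM. Much of it was Tektin-C, with 40.95 CPM in control day 14 and 64.8 CPM in control day 38, the library with the highest sum. Dhc93AB had 13.3 CPM in control day 14, against 13.2 to 57.9 CPM in the other 9. Of the 8 genes, 1 was highest in control day 14. The rule drops the symbols of all 14 testis-specific proteasome paralogs, so none could be kept. Before that step none passed the level and fold thresholds, and 3 of the 14 had 10 or more reads in control day 14. They summed to 3.25 CPM there, against 0.89 to 3.78 CPM in the other 9. Among these, Prosalpha6T had 11 reads in control day 14, 1 read in *Esg>yki* day 20 and 0 in the rest.

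Genes of other parts of the male reproductive tract lay within the range of the other 9 libraries. The 28 accessory gland genes, which encode seminal fluid proteins, had 57 reads in control day 14 (1.84 CPM), against 1.23 to 3.46 CPM in the other 9 libraries. The 4 measured genes of the ejaculatory duct and bulb had 2 reads in all (0.064 CPM), against 0.027 to 0.31 CPM. The 16 ovary and eggshell genes, used as a female background, summed to 2.22 CPM, against 0.85 to 7.59 CPM. None of these genes met the rule. The accessory gland list and the ejaculatory list each summed to less than the minimum of 2 CPM, so none of their genes could meet it. In control day 14, 1 of the 28 accessory gland genes had 10 or more reads. So had 0 of the 4 ejaculatory duct and bulb genes and 2 of the 16 ovary and eggshell genes.

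**Figure D4:**
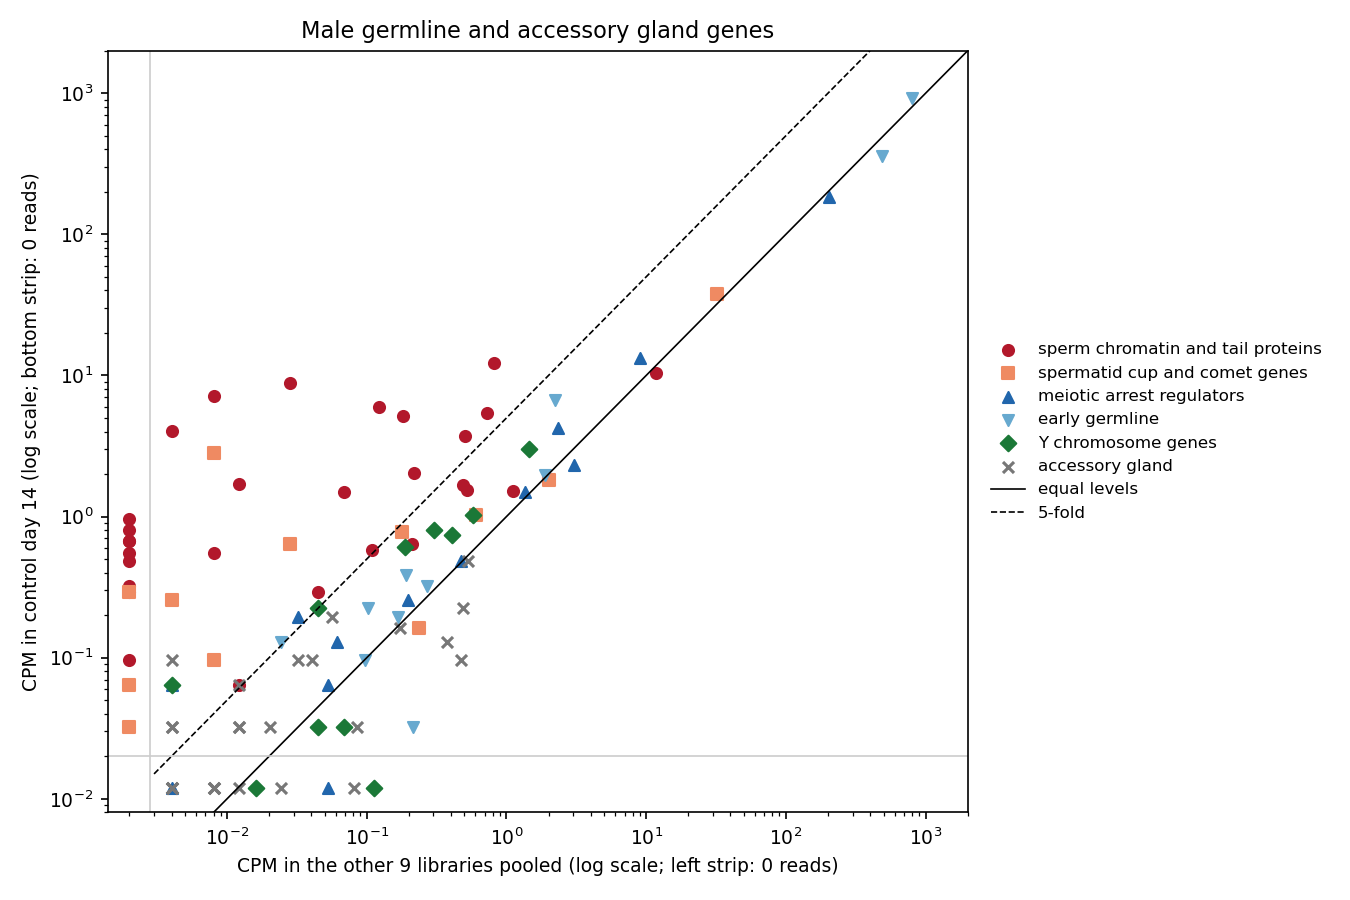
CPM in control day 14 (vertical axis) against CPM in the other 9 libraries pooled (horizontal axis), both logarithmic, for genes of 5 germline lists and of the accessory gland list, 1 symbol per gene. Strips hold genes at 0 reads, and lines mark equal levels and a 5-fold excess. Of the 29 genes for sperm chromatin and tail proteins, 25 had 10 or more reads in control day 14. Of these 25, 18 met the fold rule against every other library, as did 2 of the 6 such cup and comet genes. Over all genes with 10 or more reads it was 165 of 10825 (1.52%). None met it among the 6 meiotic, 6 early germline, 5 Y chromosome and 1 accessory gland genes with 10 or more reads.

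For organs outside the reproductive tract, no listed gene met the rule. Flight muscle genes, which check the label, summed to 39120 CPM in control day 14, against 18270 to 43180 CPM in the other 9. Fat body genes summed to 24450 CPM in control day 14, against 9705 to 22810 CPM, but most of that sum was *apolpp*, the lipophorin precursor (21190 CPM in control day 14), and 2 of the 10 genes were highest there. Hemocyte genes summed to 1203 CPM in control day 14, against 1223 to 3317 CPM. Neuron genes had 864.6 CPM (807.0 to 1313 in the others), Malpighian tubule genes 95.8 CPM (53.4 to 165.8), midgut genes 35.7 CPM (8.74 to 222.1) and photoreceptor genes 102.6 CPM (86.2 to 914.3). The part of these levels in the pattern of the 24 genes was not tested.

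The control day 14 library was not the one with the most genes of its own. With each library in turn set against the other 9 under the same thresholds, *Esg>yki* day 2 had 98 genes (1.14% of those at 2 CPM there) and *Esg>yki* day 38 had 29 (0.333%). *Esg>yki* day 20 had 8 (0.0909%), day 26 had 5 (0.0575%), day 8 had 1 (0.0114%), and days 14 and 32 had 0 (0%). Control day 38 had 3 (0.0346%) and control day 2 had 2 (0.0238%). The genes differed in the marker lists on which some of them stood. Of all 17562 genes, the sperm and spermatid lists hold 29 and 13, the midgut list 16 and the photoreceptor list 13. Of the 26 in control day 14, 9 were on the lists of sperm and spermatid genes, and no gene of those lists was nearly exclusive to any other library. Of the 98 in *Esg>yki* day 2, 6 were midgut genes, and of the 29 in *Esg>yki* day 38, 12 were photoreceptor genes.

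With a minimum of 10 reads in place of 2 CPM, 165 genes were nearly exclusive to control day 14, or 1.52% of 10825 tested. Of the 165, 20 were on the sperm and spermatid lists, which had 25 and 6 genes among the 10825. This minimum was chosen after the values were seen. *Esg>yki* day 2 had 134 genes at this minimum and *Esg>yki* day 38 had 43, none of them on those lists. The 139 genes added in control day 14 had 10 to 62 reads there (median 20), and 46 of them had no read in any other library. Their sum was 105.8 CPM in control day 14, against 1.39 to 2.59 CPM in the other 9. Control day 14 also had the most genes with a read, 14057 against 12826 to 13565, at a depth within the range of the others.

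**Figure D5:**
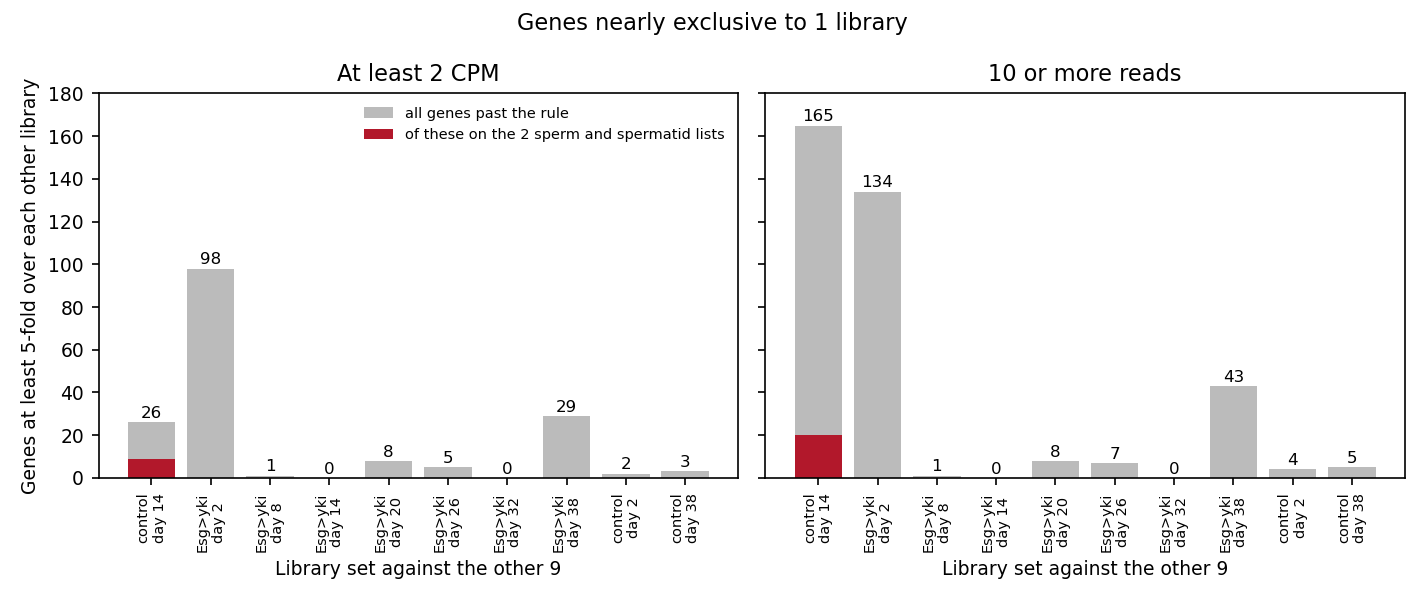
Number of genes at least 5-fold over each of the other 9 libraries, for each library in turn, with a minimum of 2 CPM (left) or 10 reads (right). Grey bars count all genes and red bars those on the 2 sperm and spermatid lists, which are found in control day 14 (9 and 20 genes) and in no other library.

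Near the thresholds, CG10725 (5.16-fold), S-Lap4 (5.24-fold) and Mst77F (5.36-fold) lay just inside the fold limit. *betaTub85D*, the testis-specific tubulin of the sperm tail, lay just outside it with 63 reads in control day 14 (2.03 CPM) and 4 to 17 reads in the others, 4.56-fold over *Esg>yki* day 32. Next were GstE8 (111.7 CPM, 3.75-fold) and lncRNA:CR43417 (29.8 CPM, 3.55-fold), whose symbols the rule drops in any case. CG3345 (3.33-fold) and asRNA:CR44169 (3.28-fold) were next among the symbols that it keeps. On the level limit, CG9254 (2.19 CPM) was the lowest inside, and CG34168 (62 reads, 1.996 CPM), CG31226 and CG12861 (61 reads and 1.96 CPM each) were the highest outside. The call for Mst77F was lost with edgeR's TMM factors (4.28-fold) and with DESeq2's size factors (4.29-fold). That for S-Lap4 was lost with TMM factors (4.96-fold) and with reads outside the mitochondrial genome as the total (4.72-fold).

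The rule capped the levels in the other 9 libraries but did not order them. In each of them 7 to 10 of the 24 genes were at 0 reads. The next highest level was in control day 38 for 8 genes, in *Esg>yki* day 8 for 5, in *Esg>yki* day 20 for 3, in *Esg>yki* days 2, 26 and 38 for 2 each, and in *Esg>yki* day 32 for 1. None had it in *Esg>yki* day 14 or control day 2. For several genes the next library was set by 1 read and by depth. S-Lap7, for instance, had 1 read in each of *Esg>yki* days 8 and 26, and the shallower library ranked higher.

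The genome position and structure of the genes were not used by the rule. Of the 24 genes, 6 were on 2L, 5 on 2R, 8 on 3L and 5 on 3R, and 0 on X, whereas 16.3% of the 8391 protein-coding genes at 2 CPM in control day 14 were on X. Among the 139 genes of lower level, 12 (8.63%) were on X. Merged exons formed a single block in 6 of the 24 genes, against 8.62% of the protein-coding genes at 2 CPM and 16.4% of all protein-coding genes. Median exon length was 1964 bases in the 24 genes and 2252 bases in the protein-coding genes at 2 CPM, but 1736 bases in all protein-coding genes.

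In 4 places members were neighbors within 50 kb: S-Lap1 and S-Lap2 (413 bases apart, 3L), CG10252 and CG31468 (3.08 kb, 3R), S-Lap3 and S-Lap4 (21.9 kb, 3L), and S-Lap8 and *loopin-1* (41.7 kb, 2R). Exons of 2 genes overlapped exons of a gene on the opposite strand, S-Lap2 with GAPsec over 53 bases (2.53% of its exons) and CG31740 with *elfless* over 52 bases (8.58%). CG31740 also shared 10 exon bases (1.65%) on the same strand with each of CG42635 and CG42634, which had 0 reads in all 10 libraries. GAPsec had 7.60 CPM in control day 14, against 5.86 to 13.2 CPM in the other 9, and *elfless* had 1 read in control day 14. S-Lap4 lies within a gene on the same strand, Rbfox1, which had 102.9 CPM in control day 14, against 82.0 to 165.9 CPM. Mst77F, CG42393, CG9254, *w-cup*, CG5089 and CG32436 overlap the span, but no exon, of an opposite-strand gene. These were Pka-R1, Eip75B, *kuz*, Trim9, CG8303 and *ebd2*, at 135.1, 69.7, 32.6, 10.1, 5.83 and 2.19 CPM in control day 14. Each was within or below its range in the other 9 libraries. S-Lap7 overlaps Cpr50Ca in the same way, with 0 reads there in control day 14. Whether counting used strand is not given in the sources used here.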

How the data were processed

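RNA of adult male thoraces had been depleted of rRNA and sequenced by the authors as single reads of 75 bases, with each library divided into 4 pools, and aligned with STAR 2.7.2b to FlyBase r6.30. The authors deposited estimated counts for each gene, unscaled and in steps of 0.25. Times 4 they are whole numbers, here taken as reads, which assumes that a value averages the 4 pools. The counting program and its handling of strand and of multiply matching reads are not given in the sources used here. A row with no gene name (1 read in all) was left out.

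CPM used the total on named genes. RPKM uses merged exons of the Ensembl release 115 annotation of Release 6, which held 99.68% of the gene identifiers and gives all coordinates (1-based). Ratios of 2 libraries carry exact Clopper-Pearson intervals and levels exact Poisson intervals. A median over a list raises pooled counts under 3 reads to the floor of 3. The depth of 14615109 to 38208954 reads makes 1 read worth 0.0262 to 0.0684 CPM.

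The rule, the genes and the 17 marker lists were chosen with earlier results of these data known. Named genes are all 24 members, up to 5 genes of a list by level, and genes next to the thresholds. Other list genes (*dj*, *ocn*, *janB*, Mst84D, Mst87F, Mst36Fa, Mst36Fb, Prtl99C, Cyt-c-d, Tpl94D, ProtA, ProtB, S-Lap5, *aly*, *comr*) and gene overlaps were picked with their values in view. The alternatives comprised thresholds of 3-fold and 10-fold, minimums of 1 and 5 CPM, of 1 read and of 10 reads, scaling by edgeR 4.0.16 (TMM) or DESeq2 1.42.0 (R 4.3.3), other totals, and fewer libraries. Promoter motifs were not analysed here.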

Additional observations from a re-analysis of the deposited data

How the results depend on the processing

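Counts of genes nearly exclusive to control day 14 moved most with the minimum level, from 8 genes at 5 CPM to 56 at 1 CPM and 470 at 1 read, against 26 at 2 CPM. With the 10-read minimum, added after seeing the data, the count was 165. Against the other 2 control libraries alone it was 49. With 1 library left out in turn it was 26 to 30. It was 32 at 3-fold, 19 at 10-fold, 24 with TMM factors, 25 with DESeq2's size factors and 39 with non-mitochondrial reads as the total. Sperm and spermatid list genes among them numbered 26 at 1 read and 20 at 10 reads, against 9. They numbered 6 at 10-fold and at 5 CPM, 7 with TMM factors, 8 with DESeq2's size factors, 10 at 3-fold, with non-mitochondrial reads and against the controls alone, 11 at 1 CPM, and 9 to 10 with 1 library left out. The highest count in another library was 98 (*Esg>yki* day 2), 206 at 1 read, 60 in control day 2 among the 3 controls, and 34 to 130 with 1 library left out, where 34 (*Esg>yki* day 38) came without *Esg>yki* day 2. After the symbol filter and the limit of 200 genes, 195 genes remained at 1 read.

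No paired analysis was possible because the results come from no test and no group has more than 1 library to pair by number. Spread between flies or library preparations cannot be estimated, so a difference between control day 14 and the others cannot be told apart from a difference between libraries. At about 10 reads a gene's level carries a wide counting error, and a count of 0 in control day 14 has an upper limit of 0.119 CPM.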

Other observations

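The long non-coding RNAs that the symbol filter removed had the same pattern as the 24 genes. lncRNA:CR9284 had 105 reads in control day 14 and 0 in the other 9 libraries, and lncRNA:CR32652, the only X-linked gene of the 26, had 80 reads in control day 14 and 0 to 3 in the others.

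A few single genes among the 139 of lower level are given here, picked by hand after their values were seen and not as a trait of the 139. eIF4E4, a paralog of the cap-binding protein, had 37 reads in control day 14 and 0 in the other 9, and eIF3d2 had 12 and 0. Vha100-3, a subunit of the vacuolar proton pump, had 12 reads and 0 elsewhere, and Vha68-3 had 28 reads against 0 to 5. Of the TCA cycle paralogs, mAcon2 (aconitase) had 24 reads against 0 to 1, and Fum3 (fumarase) had 10 reads and 0 elsewhere. Hsp60C, a mitochondrial chaperone paralog, had 27 reads against 0 to 1.

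Tektin-C, a gene of the tektin family of flagellar filament proteins, had another pattern. It had 1272 reads in control day 14, and 16, 7, 6, 12, 9, 21 and 4 reads in *Esg>yki* days 2, 8, 14, 20, 26, 32 and 38, with 358 reads in control day 2 and 1200 in control day 38. All 3 control libraries were thus above all 7 *Esg>yki* libraries. The spermatid cup gene *c-cup* had 24 reads in control day 14, 0 to 1 in the *Esg>yki* libraries, 5 in control day 2 and 38 in control day 38.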
